A study of Bos taurus with 18 samples.

Results

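The regions described are SLC39A4, CPSF1, ADCK5, ZNF16 and ARHGAP39 on cattle chromosome 14 (BTA14), each with 2000 bp on either side. They are 5 of the 25 genes that the study fine-mapped for gestation length. Every CpG position that any of the 18 bulls lists inside these regions is a member, which gave 3426 of the 40640718 positions listed in the whole series. A CpG position is a cytosine followed by a guanine, and each strand of a CpG counts as a position of its own. All 18 animals were adult Holstein bulls, sampled as semen, with 1 sperm library each. Groups of high and low merit were labelled for 5 traits, and a bull can serve in several. The fertility traits are sire conception rate (SCR) and the cow conception rate (CCR). The others are gestation length (GL), body depth (BDE) and the calving ease of a sire (SCE). The high-GL bulls were H03, H09, L03 and L05, and the low-GL bulls were H02, H05, L01 and L07. For SCE the high bulls were H03, H07 and L02 and the low bulls H01, H06 and L09. For BDE the high bulls were H02, L03 and L08 and the low bulls H05, H09 and L02. For CCR the high bulls were H08, H09 and L06 and the low bulls H06, L08 and L09. For SCR the high bulls were H01, H02 and H03 and the low bulls L01, L02 and L03. For H04 and L04 no group is labelled, and they are left out of all comparisons. The letters H and L are part of the sample names and do not give the group of a trait. They match the SCR group only in H01, H02, H03, L01, L02 and L03, and the other bulls have no SCR group labelled.

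In sperm most CpGs carry a methyl group, and the exceptions are mostly short stretches, often CpG-rich and at the starts of genes. Bisulfite treatment converts unmethylated cytosines and spares methylated ones, so the percent of reads that keep the cytosine is the methylation level of that position. SLC39A4 encodes a zinc transporter of the plasma membrane. CPSF1 encodes the largest subunit of the complex that recognises the polyadenylation signal of messenger RNA. ADCK5 encodes a kinase-like protein with an aarF domain. ZNF16 encodes a zinc finger protein that binds DNA.

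On UMD 3.1, ZNF16 (gene 100294758) lies at chr14:1426211-1459491, ARHGAP39 (gene 532363) at chr14:1558306-1600611, SLC39A4 (gene 510951) at chr14:1719732-1724221, CPSF1 (gene 282703) at chr14:1728207-1742718 and ADCK5 (gene 522614) at chr14:1742710-1756313. The bodies of CPSF1 and ADCK5 overlap by 9 bp, and their regions share 89 listed positions. The direction of transcription was not available for this build here, so distances are given from the lower and the higher coordinate of each gene.

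The bulls listed very different numbers of these positions. Over the genome they listed between 2858992 and 22048556 positions, with mean methylation between 76.8% and 85.0%. SLC39A4 held 201 positions, of which the bulls listed 1 (H01) to 107 (H08), with a median of 23.5. CPSF1 held 539 positions, with 9 to 350 per bull, and ADCK5 held 655, with 3 to 419. ZNF16 held 825 positions, with 21 to 432 per bull, and ARHGAP39 held 1295, with 39 to 864. H01 listed the fewest and H08 the most in each gene. Of all 3426 positions, 37.0% were listed in 1 bull only, against 14.9% of the listed positions of chromosome 14, and none was listed in all 18 bulls. Where the read count is given (H01, H02, H03, L01, L02 and L03), its median was 11 reads per position in every gene. In the remaining 12 bulls only the percent is listed, and depth is unknown.

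Each of the 5 genes had a short stretch of nearly unmethylated positions at or near 1 of its ends, in SLC39A4 seen in few bulls. Outside these stretches most positions were methylated, and ZNF16 had a further low stretch inside the gene. A percent pools the cells and both alleles of a bull. Of the 1495 positions listed in at least 3 bulls, 11.0% had a mean under 20%, 7.29% a mean between 20% and 80%, and 81.7% a mean of 80% or more. On the whole of chromosome 14 these shares were 5.62%, 12.5% and 81.9%. The genes differed in these shares. Under 20% were 25% of the positions of ZNF16, 14.1% in ADCK5, 7.51% in CPSF1, 2.09% in ARHGAP39 and 1.89% in SLC39A4. In SLC39A4 only 53 of 201 positions are listed in at least 3 bulls. Of all 94 listed positions of its body, 45 had a mean under 20%, but only 1 of these is listed in at least 3 bulls. By the same count the body had 192 of 753 in ZNF16, 61 of 560 in ADCK5, 32 of 431 in CPSF1 and 11 of 1200 in ARHGAP39.

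**Figure D1:**
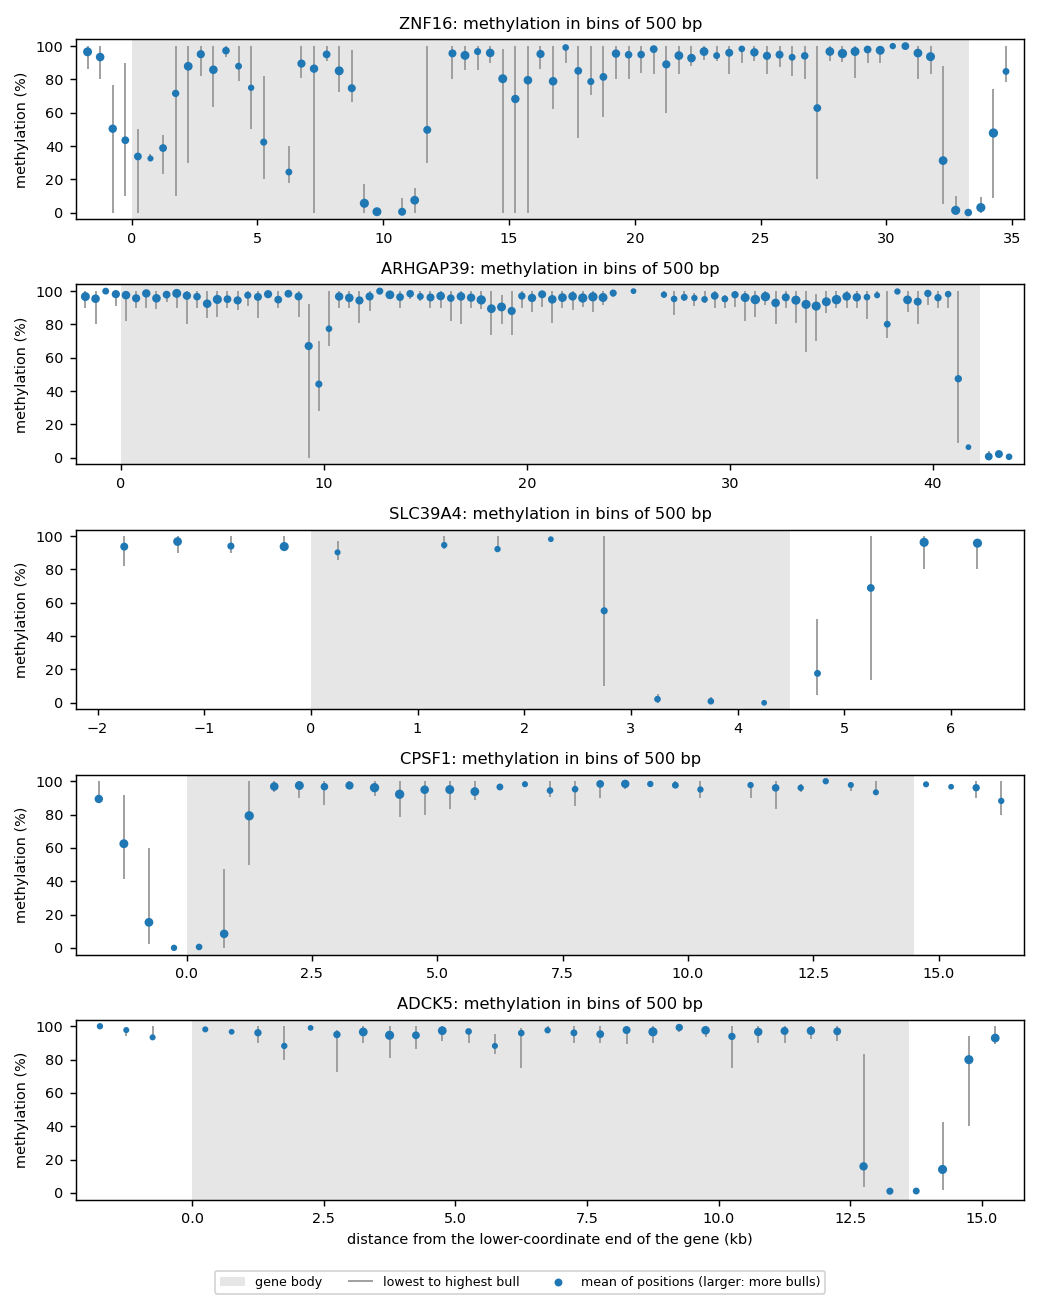
Methylation (percent, y axis) along the 5 gene regions in bins of 500 bp (x axis, kb from the lower-coordinate end of the gene); points are the mean of the listed positions, larger where more bulls list the bin, lines run from the lowest to the highest bull, and grey marks the gene body. Low bins sit at the higher-coordinate end of ZNF16, ARHGAP39, SLC39A4 and ADCK5 and at the lower-coordinate end of CPSF1, and ZNF16 has further low bins inside the gene.

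In CPSF1 the low stretch spanned its lower-coordinate end. It ran over 1672 bp (chr14:1727373-1729044), from 834 bp outside the gene to 837 bp inside it, and its 12 positions averaged 4.14%. The 15 bulls that list any of them ranged from 0% to 20% with a median of 4.43%, and the highest value, of H07, rests on 1 position. The 5 positions before the stretch averaged 53.2% and the 5 after it 29.0%, and from about 1500 bp inside the gene onward every bin of the body was above 90%.

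In ADCK5 the low stretch lay at the opposite end. It ran over 1639 bp (chr14:1755465-1757103), from 848 bp before the higher-coordinate end of the gene to 790 bp beyond it. Its 31 positions averaged 3.71%, and the 16 bulls that list any of them had a median of 5.37%. L08 stood highest at 30%, from 1 position, and 13 of the 16 bulls were under 20%. The 5 positions on its lower side averaged 59.4% and the 5 on its higher side 43.1%.

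ZNF16 had 2 such stretches. The first lay inside the gene, 9355 to 11341 bp from its lower-coordinate end (chr14:1435566-1437552), with 35 positions that averaged 3.15%. The second spanned the higher-coordinate end of the gene (chr14:1458709-1460233), from 782 bp inside to 742 bp outside, with 52 positions that averaged 2.47%. All 18 bulls listed positions in both stretches and all were under 20%, with a highest bull of 9.61% in the first and of 8.18% in the second. The tile chr14:1426001-1428000, which covers the lower-coordinate end of ZNF16, was at intermediate methylation, with 18 of its 28 positions listed in at least 3 bulls between 20% and 80%. The 14 bulls that list positions in this tile ranged from 10% to 55.3%, with a median of 36.1%. The lowest of them, H02, rests on 1 position.

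In ARHGAP39 the stretch spanned the higher-coordinate end and went on to the last position of the region that at least 3 bulls list. Its 13 positions between chr14:1599719 and 1601508 averaged 2.98%, and the 12 bulls that list any ranged from 0% to 5.45%. The next tile (chr14:1602001-1604000), which lies only in part inside the region, ranged from 0% to 6.67% over 12 bulls. ARHGAP39 also had a dip inside its body. In the bins that start 9000, 9500 and 10000 bp from its lower-coordinate end, the positions averaged 67.1%, 44.2% and 77.4%, between bins above 95%. The tile that holds the first part of this dip (chr14:1566001-1568000) ranged from 54.0% (L08) to 100% (H05, 1 position) over 14 bulls.

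SLC39A4 had no stretch by the rule used, which counts positions listed in at least 3 bulls, but its body was not alike along its length. A split was drawn after its values were seen, at 1500 bp from the higher-coordinate end. In the last 1500 bp of the body, 41 of 42 listed positions had a mean under 20%, and 31 of the 42 were listed in 1 bull only. Over these positions H07 was at 1.43%, H08 at 6.67%, L02 at 0%, L04 at 1.43%, L05 at 1.06%, L06 at 3.33% and L07 at 0.833%. In the rest of the body only 4 of 52 positions were under 20%, and the 7 bulls that list them ranged from 58.9% to 100%, with a median of 85.9%. The lowest tile of SLC39A4 (chr14:1722001-1724000) mixes these parts and ranged from 0.833% (L07) to 100% (H03) over 9 bulls.

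The tiles with the lowest mean over bulls in the other genes held a stretch or its edge. For ZNF16 it was chr14:1436001-1438000, with a mean of 11.95% and a range of 1.78% to 31.5% over 14 bulls, next to chr14:1458001-1460000 with a mean of 14.7% over 18 bulls. The medians of these tiles stood in the other order, at 10.6% and 8.64%. For ARHGAP39 it was chr14:1600001-1602000, with a median of 0% and a highest bull of 4.24%. For ADCK5 it was chr14:1756001-1758000, with a median of 38.7%, and for CPSF1 chr14:1728001-1730000, with a median of 55.4%. These last tiles hold the edge of a stretch, with 23 positions under 20% and 7 at 80% or more in ADCK5, and with 7 and 9 in CPSF1.

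The body of a gene and its flanks were also compared, over the same positions as the stretches. In plain means of the positions each of the 16 grouped bulls lists, the body of ARHGAP39 was above its flanks by 32.6 ± 31.0 points (SD, n = 16) and in 14 of 16 bulls (exact sign-flip permutation test over bulls, two-sided, p = 0.000275). In ZNF16 it was above by 24.7 ± 14.4 points (SD, n = 16), in 15 of 16 bulls (exact permutation p = 6.1e-05). In ADCK5 it was above by 43.1 ± 14.7 points (SD, n = 15), in 15 of 15 bulls (exact permutation p = 6.1e-05, the smallest for 15 bulls). In CPSF1 it was above by 21.5 ± 15.99 points (SD, n = 16), in 14 of 16 bulls (exact permutation p = 0.000214). In SLC39A4 the difference was -40.2 ± 40.7 points (SD, n = 10), with the body lower in all but 2 bulls (exact permutation p = 0.0117). Its bulls do not list the same part of the body. L02, L06 and L07 list only the last 1500 bp, at 0% to 3.33%. H03, L01, L03 and L09 list only the rest, at 82.2% to 100%. For SLC39A4 the test therefore cannot tell a difference of body and flanks from a difference in the part listed. In the other genes the plain means do not account for the positions listed either. In ARHGAP39 the bulls H01, H02 and L08 list no position in the tiles chr14:1600001-1602000 and chr14:1602001-1604000, which hold its low higher-coordinate flank. Their flank value is that of the other flank alone.

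Levels were also adjusted for position, by a fit of percent on position and bull, so that bulls that list different positions could be compared. Since that fit gives all bulls the same position effects, the sign of a body minus flank difference of adjusted levels is largely common to all bulls, and the difference is given with no test. It averaged 42.3 points in ARHGAP39, 28.9 in ZNF16, 53.7 in ADCK5, 22.1 in CPSF1 and -36.1 in SLC39A4. The adjusted body of ARHGAP39 was at 94.9% ± 0.879 (SD, n = 18). The flanks themselves were unequal. The higher-coordinate flank was at 0.891% ± 1.37 (SD, n = 14) in ARHGAP39, 22.8% ± 4.17 (SD, n = 18) in ZNF16 and 30.7% ± 6.36 (SD, n = 18) in ADCK5. The lower-coordinate flank was at 95.7% ± 3.35 (SD, n = 17) in ARHGAP39, 66.2% ± 4.93 (SD, n = 17) in ZNF16 and 57.2% ± 6.63 (SD, n = 17) in CPSF1.

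Over the fitted positions of a region the order of the adjusted levels was ARHGAP39, CPSF1, SLC39A4, ADCK5 and ZNF16. ARHGAP39 was at 92.3% ± 0.840 (SD, n = 18), with bulls from 90.3% (L08) to 94.1% (H01). CPSF1 was at 85.7% ± 1.89 (SD, n = 18), from 82.5% (H01) to 88.8% (H07). SLC39A4 was at 79.8% ± 4.59 (SD, n = 18), from 64.2% (L08, 2 positions) to 84.8% (H03). ADCK5 was at 78.8% ± 1.61 (SD, n = 18), from 76.7% (H05) to 82.1% (H01, 3 positions). ZNF16 was at 64.9% ± 1.39 (SD, n = 18), from 62.2% (L05) to 67.8% (L08). At the fitted positions SLC39A4 and ADCK5 did not differ beyond their spread. The other neighbours in this order were farther apart than the SD of either, although the bulls of CPSF1 and SLC39A4 overlapped in range. Among the 25 fine-mapped genes the levels ran from 22.4% (SCRT1) to 93.4% (LOC107131356).

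The spread between bulls was larger in the plain means, which do not account for the positions each bull lists. As plain means over listed positions, the bulls ranged from 44.0% (L07) to 100% (H01, 1 position) in SLC39A4 and from 46.9% (L09) to 92.1% (L07) in ADCK5. The SD of the plain means was 15.2 points in SLC39A4, 11.4 in ADCK5, 6.31 in ZNF16, 5.95 in CPSF1 and 2.56 in ARHGAP39. Each was larger than that of the adjusted levels of the same gene.

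**Figure D2:**
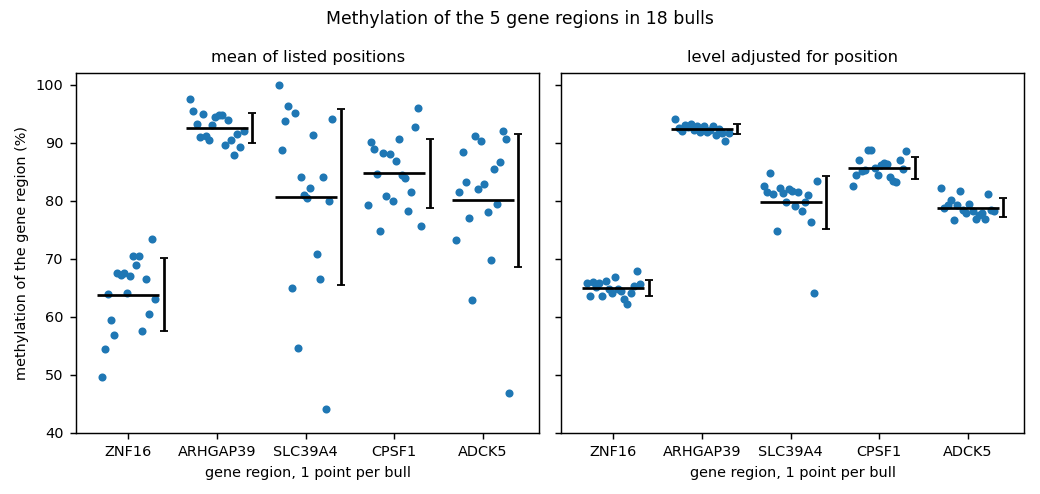
Methylation of each gene region (percent, y axis) in each of 18 bulls (points), as the plain mean of listed positions (left) and as the level adjusted for position (right), with the mean (line) and SD (error bar). The SD of ADCK5 is 11.4 points on the left and 1.61 on the right, and the point at 64.2% on the right is L08 in SLC39A4, from 2 positions.

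In the adjusted levels no gene separated the high from the low bulls of any trait. For GL, the trait the genes were mapped for, SLC39A4 had a mean of 82.0% ± 2.12 (SD, n = 4) in the high group. The low group had 78.5% ± 3.57 (SD, n = 4). The high-GL values were 79.7% (L05), 81.6% (L03), 82.0% (H09) and 84.8% (H03), and the low-GL values 74.7% (H05), 76.3% (L07), 81.5% (H02) and 81.7% (L01). The groups overlapped, and the difference of 3.49 points had an exact permutation p of 0.171. It was 2.00 points without H03, 13.6 points in plain means and -8.78 points in the gene body alone, where 5 bulls gave a value. ARHGAP39 differed by -0.602 points (exact permutation p = 0.114), with 91.8% ± 0.353 (SD, n = 4) in the high group against 92.4% ± 0.537 (SD, n = 4). The differences were -0.398 points in CPSF1 (exact permutation p = 0.771), -1.07 in ADCK5 (exact permutation p = 0.4) and -1.25 in ZNF16 (exact permutation p = 0.286), each within 1 SD between bulls (1.45, 1.49 and 1.42 points). At positions listed in at least 9 bulls they were -1.65 points in CPSF1 (exact permutation p = 0.4), -3.64 in ADCK5 (exact permutation p = 0.0857) and -1.84 in ZNF16 (exact permutation p = 0.143). All are beyond the SD above, which is that of the levels over all fitted positions and not the spread between bulls at positions listed in at least 9 bulls. At those positions SLC39A4 differed by 4.87 points (exact permutation p = 0.0857) and ARHGAP39 by -0.049 (exact permutation p = 0.971). In plain means the differences were -3.28 points in CPSF1, -1.35 in ADCK5, 3.89 in ZNF16 and -2.24 in ARHGAP39. The test was two-sided over 70 groupings and cannot give a p below 0.0286, and 5 genes were tested.

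For the traits with 3 bulls against 3, an exact permutation test cannot give a p below 0.1, so no test was made. Of all 25 differences of a gene and a trait, 8 were larger than the SD between bulls and 1 was larger than 2 SD. That was CPSF1 in CCR, at 84.4% ± 1.20 (SD, n = 3) in the high and 87.6% ± 1.86 (SD, n = 3) in the low bulls, a difference of -3.18 points. In the gene body alone it was -1.80 points. The high bulls stood at 83.2% (L06), 84.5% (H09) and 85.6% (H08), and the low bulls at 85.5% (L08), 88.7% (L09) and 88.7% (H06). The groups overlapped by the values of H08 and L08. The median size of the 25 differences was 0.88 points after adjustment and 3.89 points in plain means, and 7 of the 25 had opposite signs in the 2 measures. In ADCK5 and SCE, for example, the plain means differed by 24.9 points and the adjusted levels by -0.161.

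Tiles of 2000 bp were then tested one by one over the whole genome. The 5 regions touch 65 tiles, of which 22 to 37 had at least 1 position in every bull of a trait and could be tested. The tiles chr14:1720001-1722000 and chr14:1722001-1724000, which hold most of the body of SLC39A4, could be tested in no trait. A call needed a q under 0.01 together with more than 5 points between the pooled reads of the groups. In GL 5 of 35 tested tiles were called, beside 8.75% of all tested tiles of the genome. In SCE 3 of 22 were called, beside 6.18%. In BDE 3 of 32 were called, beside 7.57%. In CCR 3 of 37 were called, beside 11.1%. In SCR 7 of 24 were called, beside 8.68%. Leaving out a bull changed both the calls and the number of tiles that could be tested. In SCR 2 of 25 tiles were called without H03 (8.87% of all tiles), 4 of 24 without L01 (9.26%) and 9 of 40 without H01 (9.38%), and 4 of 24 with 10 reads per position (6.05%). In GL 2 of 35 were called without L05 (7.84%), and in SCE 5 of 39 without H01 (6.80%). In BDE 5 of 34 were called without L03 (6.93%) and 7 of 32 without L02 (7.69%). In CCR 6 of 39 were called without H06 (8.53%) and 4 of 37 without H08 (16.9%). Of the tiles of the other 7 fine-mapped genes of chromosome 14, 0 of 18 were called in GL, 0 of 13 in SCE, 2 of 16 in BDE, 0 of 19 in CCR and 0 of 11 in SCR. Of those of the 13 genes elsewhere, 30 of 454 were called in GL, 17 of 355 in SCE, 33 of 429 in BDE, 34 of 426 in CCR and 25 of 372 in SCR.

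The logistic test behind these calls does not estimate the spread between bulls. The F test with overdispersion and limma, which do, called 0 tiles of the 5 regions in every trait after adjustment over the genome. Neither called any tile of the whole genome in any trait. At an unadjusted p under 0.05 together with a difference over 5 points, the F test had 0, 0, 1, 1 and 2 tiles. Limma had 1, 2, 3, 0 and 4 tiles, both in the order GL, SCE, BDE, CCR and SCR. Over all tiles of the genome the shares that met both conditions were, in the same order, 3.69%, 3.41%, 3.70%, 3.37% and 2.72% for the F test. For limma they were 3.59%, 3.30%, 3.84%, 3.61% and 3.40%. Non-overlap of the groups with a difference over 5 points was seen in 0 of 35 tiles in GL (1.84% of all tiles), 2 of 22 in SCE (5.04%), 3 of 32 in BDE (5.54%), 2 of 37 in CCR (5.18%) and 1 of 24 in SCR (4.91%).

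The 21 calls fell in 12 tiles, 5 of which were called for more than 1 trait, and 13 calls were gains and 8 losses in the high bulls. Among the tiles, 7, with 15 of the calls, hold at least 3 positions under 20% and at least 3 at 80% or more. Most of them lie at the edge of a low stretch. Of the uncalled tiles of the 5 regions, only chr14:1458001-1460000 of ZNF16 is mixed in this way, and the share of such tiles over the genome was not counted. Of the positions listed in either group of a called tile, between 10.3% and 75.0% were listed in both groups, with a median of 37.5%. At these shared positions the median size of the difference was 2.65 points, against 16.8 points in all listed positions, and 8 of the 21 differences changed sign.

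**Figure D3:**
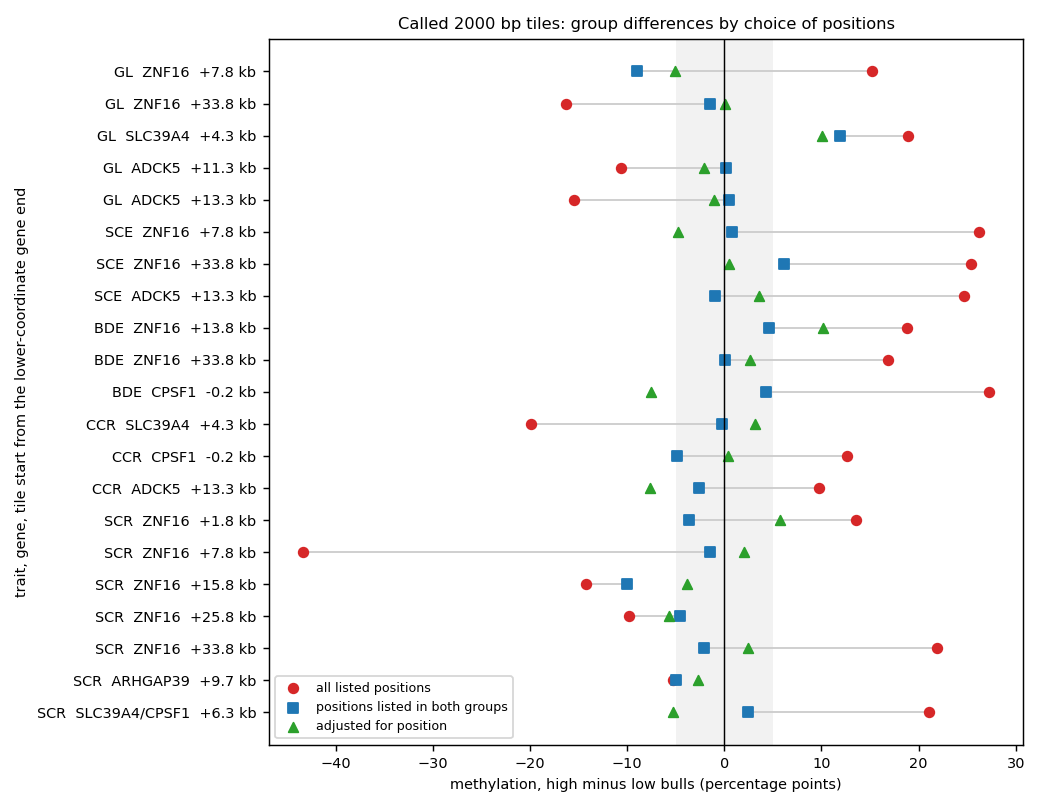
Difference between high and low bulls (percentage points, x axis) in the 21 called tiles (y axis: trait, gene and tile start in kb from the lower-coordinate gene end), in all listed positions (circles), at positions listed in both groups (squares) and after adjustment for position (triangles); grey marks differences of up to 5 points. Most circles lie beyond 10 points and most squares and triangles within 5, and the SLC39A4 tile in GL keeps 11.9 and 10.1 points.

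A stratified test at the shared positions called 3 of 35 tiles in GL, beside 2.15% of all tiles, 0 of 22 in SCE (1.31%), 0 of 32 in BDE (1.59%), 1 of 37 in CCR (4.37%) and 0 of 24 in SCR (1.16%). The level that each bull would have if every position it lists were at the mean of the other bulls was computed after these values were seen. The group difference of those levels had the sign of the observed difference in 19 of the 21 calls. Its median size was 12.4 points, and the median size of what remained was 2.22 points.

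In GL the tile chr14:1724001-1726000 holds the higher-coordinate end of SLC39A4 and the flank beyond it. The high-GL bulls were at 68.2% (H09), 82.2% (L03), 88.5% (H03) and 93.1% (L05), and the low-GL bulls at 40% (H02, 1 position), 49.4% (H05), 67.4% (L01) and 86.7% (L07). The groups overlapped through L07. The pooled difference was 19.0 points, and at the 17 positions listed in both groups the high bulls were at 84.2% and the low bulls at 72.3%, a difference of 11.9 points. The stratified test, which like the logistic test leaves the variation among bulls out and here takes 10 reads per position, called it in the same direction. Adjusted for position within the tile, the high-GL bulls were at 79.2% to 86.9% and the low-GL bulls at 68.2% (H05), 70.3% (L07) and 78.2% (L01), without overlap, while H02 could not be fitted. Adjusted groups also did not overlap in other tiles. Among them were ADCK5 chr14:1756001-1758000 in CCR (-7.63 points, against the sign of its call) and ARHGAP39 chr14:1568001-1570000 in GL (-6.19 points). The share of such tiles over the genome was not counted. Of a pooled difference of 21.7 points at positions that other bulls list too, the mean of the other bulls at those positions gave 10.3 points. The call was lost without H05, and limma gave an adjusted p of 0.98. In CCR the same tile was called with a loss of 19.9 points in the high bulls, while the 7 shared positions differed by -0.29 points.

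ZNF16 held 11 of the 21 calls. Of its tested tiles 2 of 11 were called in GL, 2 of 9 in SCE and 2 of 11 in BDE. In CCR 0 of its 14 tested tiles were called and in SCR 5 of 8, beside the shares over all tiles given above. Its tile chr14:1434001-1436000 holds the lower edge of the inner stretch, with 22 positions under 20% and 25 at 80% or more, and was called in GL, SCE and SCR. Over all 18 bulls it ranged from 0% (H09) to 85.2% (L03). In SCR the high bulls were at 8.89% (H01), 9.09% (H02) and 58.1% (H03) and the low bulls at 57.2% (L01), 78.4% (L02) and 85.2% (L03), a pooled difference of -43.4 points and the largest of the 21. At the 13 positions listed in both groups the high bulls were at 39.6% and the low bulls at 41.1%, a difference of -1.51 points. In SCE the pooled difference was 26.2 points and that at shared positions 0.76 points. In GL the pooled difference was a gain of 15.2 points, and at the 40 shared positions the high bulls were lower, at 39.3% against 48.3%. The stratified test called this opposite difference of -8.99 points.

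The tile at the other end of ZNF16 (chr14:1460001-1462000) was called in GL, SCE, BDE and SCR. It holds 11 positions under 20%, 7 between and 16 at 80% or more, and the bulls ranged from 0% (L09, 1 position) to 80% (L08). In SCE the high bulls were at 47.0% (H07), 56.8% (L02) and 65.8% (H03) and the low bulls at 0% (L09), 10% (H01) and 40% (H06). The groups did not overlap, but L09 and H01 list 1 position each and 4 positions were listed in both groups, with a difference of 6.16 points. The differences at shared positions were -1.51 points in GL (pooled -16.3), 0.067 points in BDE (pooled 16.8) and -2.08 points in SCR (pooled 21.9).

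The other calls in ZNF16 were in tiles where most positions were methylated. In BDE the tile chr14:1440001-1442000 was at 87.3% (L08), 93.9% (L03) and 94.4% (H02) in the high bulls and 50% (L02), 75.0% (H09) and 78.7% (H05) in the low bulls. The groups did not overlap, and the difference was 18.8 points pooled and 4.55 points at 9 shared positions. In SCR chr14:1428001-1430000 was higher in the high bulls by 13.6 points, without overlap, at 95% to 100% against 72.5% to 86.9%. Only 3 positions of it were listed in both groups, and there the difference was -3.64 points. In SCR chr14:1442001-1444000 fell by 14.3 points and chr14:1452001-1454000 by 9.78 points, and at shared positions the differences were -9.98 and -4.57 points.

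In ADCK5 both called tiles lie at the stretch of its higher-coordinate end. The tile chr14:1756001-1758000 was called in GL, SCE and CCR. In GL the high bulls were at 1.02% (L05), 35% (H09), 48.7% (L03) and 49.2% (H03) and the low bulls at 20% (H02), 40.2% (H05), 40.5% (L07) and 47.3% (L01). The groups overlapped throughout, and the pooled difference of -15.5 points became 0.48 points at shared positions. In SCE it was 24.7 points pooled and -0.93 points at shared positions. In CCR the pooled difference was a gain of 9.75 points although the mean of the high bulls (32.8%) was below that of the low bulls (33.7%). The tile chr14:1754001-1756000, called in GL only, differed by -10.6 points pooled and 0.13 points at shared positions.

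In CPSF1 the tile chr14:1728001-1730000, at the inner edge of its stretch, was called in BDE (27.3 points) and CCR (12.6 points), with 4.30 and -4.90 points at shared positions. In SCR the tile chr14:1726001-1728000, between SLC39A4 and CPSF1, was called with 21.1 points and 2.46 points at shared positions. ARHGAP39 had 1 call in 5 traits. Its tile chr14:1568001-1570000 was lower in the high-SCR bulls, with a difference of -5.26 points pooled and -5.02 points at shared positions. The high bulls were at 92.2% (H03), 95% (H02) and 100% (H01) and the low bulls at 97.4% (L02), 98.3% (L03) and 98.8% (L01), so the groups overlapped. In GL the same tile was not called in all listed positions (-3.82 points), but the stratified test called it at 12 shared positions (-11.2 points).

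A further 5 tiles had groups that did not overlap and were not called. They were chr14:1456001-1458000 of ZNF16 in SCE (-5.20 points pooled), chr14:1592001-1594000 of ARHGAP39 in BDE (-5.22), chr14:1716001-1718000 of SLC39A4 in BDE (6.57), chr14:1444001-1446000 of ZNF16 in CCR (-6.44) and chr14:1726001-1728000 between SLC39A4 and CPSF1 in CCR (-6.80). In the last of these the high bulls were at 58.7%, 60.1% and 60.4% and the low bulls at 63.6%, 68.1% and 80% (L08, 1 position). At shared positions the differences of these tiles were, in the order given, -7.43 points (6 positions), -7.09 (17 positions), 2.15 (19 positions), 9.09 (1 position) and -15.0 (9 positions), so that 3 of the 5 were larger than in all listed positions in the same direction and 1 changed sign. In CCR the stratified test also called chr14:1432001-1434000 of ZNF16, on 3 shared positions (-32.1 points).

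At most single positions listed in at least 6 bulls the bulls were much alike. Positions with a mean between 20% and 80% varied more. In the tiles with the most of them, chr14:1426001-1428000, chr14:1756001-1758000 and chr14:1726001-1728000, their median SD was 12.8, 14.4 and 15.9 points. Among the 602 positions listed in at least 6 bulls, the median SD between bulls was 5.09 points, beside 6.09 on chromosome 14, and 12 positions (1.99%) had an SD over 20 points, beside 5.44%. These were 8 of the 168 such positions of ZNF16, 3 of 65 in ADCK5 and 1 of 264 in ARHGAP39. CPSF1, with 86, and SLC39A4, with 19, had none. At ZNF16 position 1429390 the bulls L03, L05 and L07 were at 0%, L04, L06 and H06 at 28.6%, 33.3% and 53.8%, and H07, H08, H09 and L08 at 100%. At position 1440805 L02, L05 and L09 were at 0%, L06 at 54.5%, and H03, H08 and L01 at 100%. The next base, position 1440806, had H04 and L07 at 0%, H05, H06, L04 and L06 between 36.4% and 50%, L01 and L08 at 91.7% and 92.9%, and H02, H07 and H08 at 100%. At ADCK5 position 1746290 L03 was at 0%, L05 and L04 at 36.4% and 45.5%, and the other 7 bulls at 81.8% or more. The other ADCK5 positions, 1757110 and 1757139, lie at the edge of its low stretch and spread from 16.7% to 83.3% and from 6.25% to 70%. Genotypes of the bulls were not analysed here, and their part in these values was not tested.

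**Figure D4:**
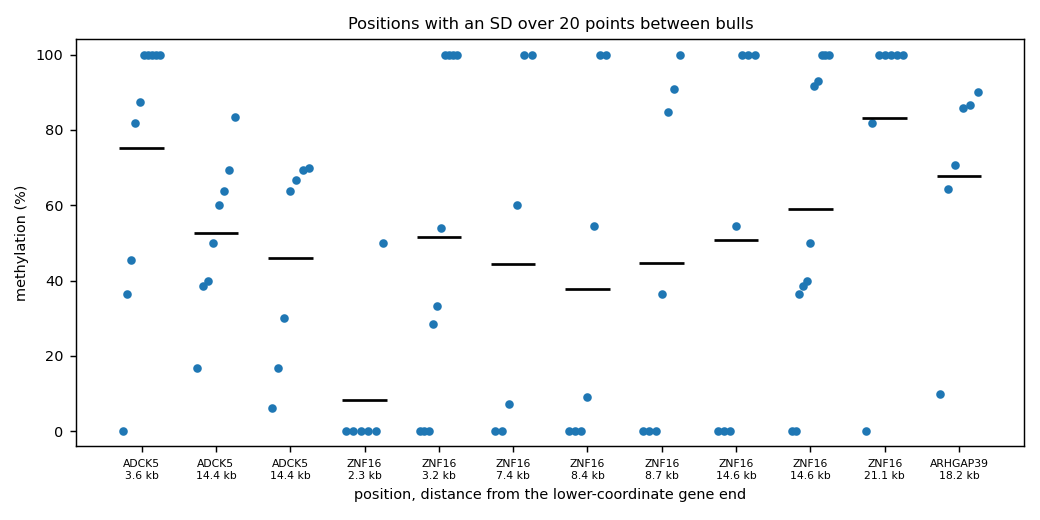
Methylation (percent, y axis) of each bull (points) and their mean (lines) at the 12 positions with an SD over 20 points among those listed in at least 6 bulls (x axis: gene and distance from its lower-coordinate end in kb). At 7 of the 8 positions of ZNF16 there are bulls at 0% and at 100%, and at 1429390 3 of 10 bulls lie between.

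Both strands of a CpG gave levels close to each other. Where 1 bull lists both, they differed by a median of 2.83 points in SLC39A4, 7.53 in CPSF1, 6.25 in ADCK5, 6.07 in ZNF16 and 3.79 in ARHGAP39.

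Across the 18 bulls, the adjusted level of CPSF1 was most like those of SCRT1 (Pearson r = 0.642) and HSF1 (r = 0.555), both on chromosome 14 as well. ADCK5 was most like PCDHA13 (r = 0.659) and ZNF613 (r = 0.562), and ZNF16 most like BOP1 (r = 0.523) and SCRT1 (r = 0.452). Without the 2 bulls farthest from the median of ADCK5 its value with ZNF613 was 0.347, and likewise that of ZNF16 with SCRT1 was 0.318. SLC39A4 was most like ARHGAP39 (r = 0.549) and WWP2 (r = 0.432), and both values rest on H05 and L08, without which they were 0.198 and 0.035. ARHGAP39 was next most like HCFC2 (r = 0.419). These are the highest of 23 values for each gene, over bulls whose genes share a library and its depth, and they are a description of these bulls. The median of the 23 was 0.322 for CPSF1, 0.160 for SLC39A4, 0.148 for ADCK5, 0.0399 for ZNF16 and 0.0186 for ARHGAP39.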

How the data were processed

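Whole-genome bisulfite sequencing was done on sperm DNA from 18 adult Holstein bulls, 1 sample each. According to the submitters' processing notes and the methods, the authors checked reads with FastQC 0.11.2, trimmed them with Trim Galore 0.4.0, mapped them to UMD 3.1 with bowtie2 and extracted methylation with Bismark 0.14.5. For every CpG position with 10 or more reads, the authors deposited a methylation percent. A read count per position was deposited for 6 bulls. The depth of the remaining 12 is unknown, so the design's test on read counts was run with 10 reads per position in every trait but SCR, which used the listed counts.

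Gene starts and ends were those of the study's list of 25 fine-mapped genes, extended by 2000 bp. The genes were chosen, and the lists and rules fixed, with earlier results of these data known. Tiles of 2000 bp with at least 1 position in every bull of a comparison were tested over the whole genome by logistic regression with a likelihood ratio test. Tiles were called at q under 0.01 (a simplified SLIM estimate) with groups more than 5 points apart. The alternative tests were an F test with overdispersion, limma 3.58.1 (R 4.3.3) on log2 ratios derived here from the deposited percent (methylated over unmethylated reads, each plus 1), and a Cochran-Mantel-Haenszel test at positions listed in both groups, with each position a stratum.

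The adjusted level of a region in a bull came from a least-squares fit of percent on position and bull over all 18 bulls, with positions listed in at least 2 bulls, predicted as the mean over all fitted positions. The fit does not see the groups. It was run on simulated data, as was the logistic test, but the outcome is not given here and no conclusion rests on it. GL differences were compared by exact permutation over bulls and gene bodies with flanks by exact sign flips, both two-sided. The sign flips are reported for plain means in place of the adjusted levels of the design, whose position effects all bulls share. The tiles named are those called for any trait, those in which the groups of a trait did not overlap with a difference over 5 points, and the lowest tile of each gene. A further rule named runs of at least 5 consecutive positions, listed in 3 or more bulls, with a mean under 20%. Computations used Python 3.11.15, NumPy 2.4.6 and SciPy 1.17.1. The alternatives were other positions, strands averaged, the gene body alone, other call rules and each bull left out in turn. The genome and gene models of UMD 3.1 were not used here, so strand, exons and promoters are not given, and markers that tell sperm from somatic cells were not analysed here. No sequence is printed.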

Additional observations from a re-analysis of the deposited data

How the results depend on the processing

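The limits of these values are depth and the sharing of positions: each listed position rests on at least 10 reads, the depth of 12 bulls is unknown, and with 3 bulls against 3 no exact permutation test can pass 0.05. Intervals for single positions are not given for that reason. The cause of each change below was not tested.

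The number of called tiles depended on the test. The F test with overdispersion and limma each called 0 tiles in all 5 traits, in the 5 regions and in the whole genome alike. The stratified test at matched positions called 3 tiles in GL, 0 in SCE, 0 in BDE, 1 in CCR and 0 in SCR. Shifting the tiles by 1000 bp gave 3 of 40 tested in GL (8.81% of all tiles) and 2 of 22 in SCE (6.22%). It gave 5 of 33 in BDE (7.49%), 1 of 31 in CCR (11.0%) and 5 of 23 in SCR (8.75%). Asking for at least 3 positions per tile left fewer tiles to test. It gave 4 of 20 in GL (8.77% of all tiles), 2 of 6 in SCE (6.63%), 1 of 17 in BDE (8.15%), 1 of 19 in CCR (11.4%) and 2 of 7 in SCR (9.33%). The mean listed coverage at every position gave 6 in BDE, where the share over all tiles rose to 11.6%, and 10 reads per position gave 4 in SCR, where it fell to 6.05%. With each bull omitted in turn, the counts were 2 (of 35 tested, without L05) to 6 in GL, 2 to 5 (of 39, without H01) in SCE, 3 to 7 (of 32, without L02) in BDE, 3 to 6 (of 39, without H06) in CCR and 2 (of 25, without H03) to 9 (of 40, without H01) in SCR. The other call rules run (Benjamini-Hochberg in place of SLIM, a difference over 10 points) left the counts within 1.5 times. With a difference over 10 points they were 5 in GL, 3 in SCE, 3 in BDE, 2 in CCR and 5 in SCR. The share over all tiles then fell to 4.90%, 4.65%, 5.53%, 7.09% and 5.64%, in the same order.

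The body-minus-flank differences had the same direction in adjusted levels and in plain means, but the spread was larger in plain means (40.7 against 5.94 points SD in SLC39A4), and the body then went against that direction in 2 of 10 bulls in SLC39A4, in 2 of 16 each in CPSF1 and ARHGAP39 and in 1 of 16 in ZNF16. Averaging the strands moved each of the 25 gene differences by less than 1 SD. In the gene body alone the difference of SLC39A4 was -8.78 points in GL (5 bulls, exact permutation p = 0.1, the smallest these bulls can give) and -2.70 in SCR. That of CPSF1 was -1.80 in CCR, and that of ADCK5 -1.36 in BDE and 0.482 in CCR. The body alone gave no value for SLC39A4 in SCE, BDE and CCR. With positions listed in at least 9 bulls the differences included -3.64 for ADCK5 and -1.65 for CPSF1 in GL, and -1.03 in SCR and -7.06 in BDE for SLC39A4. They also included -3.52 for ADCK5 in SCE and -1.12 in BDE, 2.95 for CPSF1 in SCE and 1.39 for ZNF16 in SCR. For ARHGAP39 they were 0.702 in BDE and 1.33 in SCR. In plain means they were -19.5 (SCE), 10.7 (BDE), -6.68 (CCR) and 9.43 (SCR) for SLC39A4, 5.78 (SCE) and 8.37 (BDE) for CPSF1, and 24.9 (SCE), -1.20 (BDE), 19.6 (CCR) and 4.14 (SCR) for ADCK5. For ZNF16 the plain means differed by 3.89 (GL, exact permutation p = 0.314), 7.18 (SCE) and -12.8 (SCR), and for ARHGAP39 by -3.28 (BDE) and 2.46 (SCR). Leaving out 1 bull at a time changed the sign of 14 of the 25 differences at least once and moved 23 by over 1.5 times. L08, which lists 2 positions of SLC39A4, turned its difference from 4.35 to -1.88 in CCR and from -2.91 to 2.88 in BDE. Leaving out 1 bull moved SLC39A4 in GL between 2.00 (without H03) and 4.48, SLC39A4 in SCR between 0.253 (without H03) and 2.68, CPSF1 in GL between -0.892 and 0.099 (without L05) and ARHGAP39 in GL between -0.887 (without L07, exact permutation p = 0.0286) and -0.455.

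Of the 21 called tile differences, these had the opposite sign at matched positions: -8.99 for the ZNF16 tile that starts at 1434001 in GL, 0.126 and 0.482 for the ADCK5 tiles 1754001 and 1756001 in GL, -0.927 for 1756001 in SCE and -2.65 in CCR, -4.90 for the CPSF1 tile 1728001 in CCR, and -3.64 and -2.08 for the ZNF16 tiles 1428001 and 1460001 in SCR. The adjustment for position, chosen after seeing the data, reversed the ZNF16 tile 1434001 in GL (-5.13), SCE (-4.78) and SCR (2.03), the ZNF16 tile 1460001 in GL (0.059), CPSF1 1728001 in BDE (-7.59), SLC39A4 1724001 in CCR (3.17), ADCK5 1756001 in CCR (-7.63) and 1726001 between SLC39A4 and CPSF1 in SCR (-5.28). Leaving out 1 bull at a time turned ADCK5 1756001 in GL (-21.8 to 2.69) and CPSF1 1728001 in CCR (-11.7 to 24.7). The calls made whichever bull was left out were ZNF16 1434001 in GL and SCR, ZNF16 1460001 in SCR and ADCK5 1756001 in SCE. The remaining calls were lost without at least 1 bull: in GL, ZNF16 1460001 without L05, SLC39A4 1724001 without H05, ADCK5 1754001 without L03, L05 or L07 and ADCK5 1756001 without L05 or L01; in SCE, ZNF16 1434001 without L02 and 1460001 without H03, H01 or L09; in BDE, ZNF16 1440001 without H02, ZNF16 1460001 without H02, L08 or H09 and CPSF1 1728001 without H05. In CCR, SLC39A4 1724001 was lost without H06, CPSF1 1728001 without H09 or L09 and ADCK5 1756001 without L09. In SCR, ZNF16 1428001 and the tile 1726001 were lost without H03, ZNF16 1442001 without H03 or L01, ZNF16 1452001 without H02, H03, L01 or L03 and ARHGAP39 1568001 without H03, L01 or L03.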

Other observations

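H04 and L04, which the labels place in no trait group, had adjusted levels of 81.1% and 78.3% in SLC39A4, 85.1% and 84.1% in CPSF1, 80.1% and 77.5% in ADCK5, 65.0% and 63.0% in ZNF16 and 93.0% and 92.8% in ARHGAP39.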
